A study of Mus musculus with 7 samples.

Results

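The genes described here code for the subunits of integrins and laminins. They were picked out by a rule on the symbol: Itga followed by a number or letter, Itgb followed by a number, and Lama, Lamb or Lamc followed by a number. The rule was set with earlier results of these data known. Exactly 1 such symbol was carried by 27 rows, of 23332 rows in all, and each row was 1 gene. They comprised 13 integrin α subunits, 7 integrin β subunits and 7 laminin chains. A further 3 rows listed Itga1, Itga4 or Itgax beside another gene and were not used here. Lama5, Lamb2 and the other family members not named below were not analysed here.

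Integrins are receptors of the cell surface made of 1 α and 1 β subunit. They bind matrix proteins outside the cell and, through adaptor proteins, the actin cytoskeleton inside it. Laminins are trimers of an α, a β and a γ chain that assemble into the basement membrane, the thin matrix sheet around each smooth muscle cell and beneath the endothelium. In small arteries these contacts carry wall stress to the contractile cells.

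The tissue was mesenteric artery, the vessel bed that feeds the intestine. The 3 P467L mice were male and carried human PPARγ with the dominant-negative P467L mutation as a transgene under the smooth muscle myosin heavy chain (SMMHC) promoter. This mutant nuclear receptor interferes with normal PPARγ, and the promoter targets it to smooth muscle, whereas the sample also holds endothelium and adventitia. The 4 control mice were non-transgenic (NT) littermates. Each array held RNA of 1 mouse, not pooled, so the replicates were animals. Age was not given in the sources used here. The comparison asks what interference with PPARγ in smooth muscle does to transcripts of the whole vessel.

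Values are log2 signals of Affymetrix exon arrays, 1 per row and array, and a difference is the P467L mean minus the NT mean. Levels of different genes were set only against the quartiles of each array, because each row has its own probes. Those positions carry the same limit. Array medians lay between 6.29 and 6.34. Principal component 1 (33.7% of the variance, arbitrary sign) had P467L replicate 3 at 42.9 and P467L replicate 2 at -31.2, outside the -27.4 to 17.6 of the other 5 arrays. In the Pparg row the means were 6.66 ± 0.16 in P467L (SD, n = 3) and 6.78 ± 0.30 in NT artery (SD, n = 4), and since those probes were made for the mouse gene they do not check the human transgene. All 6 smooth muscle markers lay above the upper quartile of every array, as did 4 of 7 endothelial and 4 of 5 fibroblast markers. In whole-vessel RNA, fewer cells of a type and less RNA per cell cannot be told apart.

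No integrin or laminin gene passed the test between genotypes. With limma and Benjamini-Hochberg adjustment over all rows, 0 of the 27 genes had an adjusted p under 0.05, as had 0 of all rows (0.00%), and the adjusted p of each of the 27 was 1. At an unadjusted p of 0.05, 3 of the 27 genes were listed, against 3.10% of all rows. The 1 higher was Itga2 (1.55% of all rows were listed as higher), and the 2 lower were Lama4 and Itga3 (1.56% of all rows). The values of the genotypes did not overlap in 2 genes, against 2.57% of all rows: 0 were higher (1.29% of all rows) and 2, again Lama4 and Itga3, were lower (1.28%). Means were lower in P467L artery for 17 genes, higher for 8 and equal for 2, with a median difference of -0.027. Of all rows 50.7% had lower and 47.7% higher means, and their median difference was -0.0025. Without each array in turn the number with lower means was 14 to 18, and the number at an unadjusted p of 0.05 was 0 to 4. Leaving out NT replicate 1 or NT replicate 3 gave 0, and leaving out NT replicate 2 or P467L replicate 1 gave 1. Genes whose groups did not overlap numbered 5 when P467L replicate 2 was left out and 4 when P467L replicate 3 was. Smaller groups are apart more easily, and shares of all rows for the leave-outs are not given here. The leave-out counts therefore cannot be set against the shares above.

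**Figure D1:**
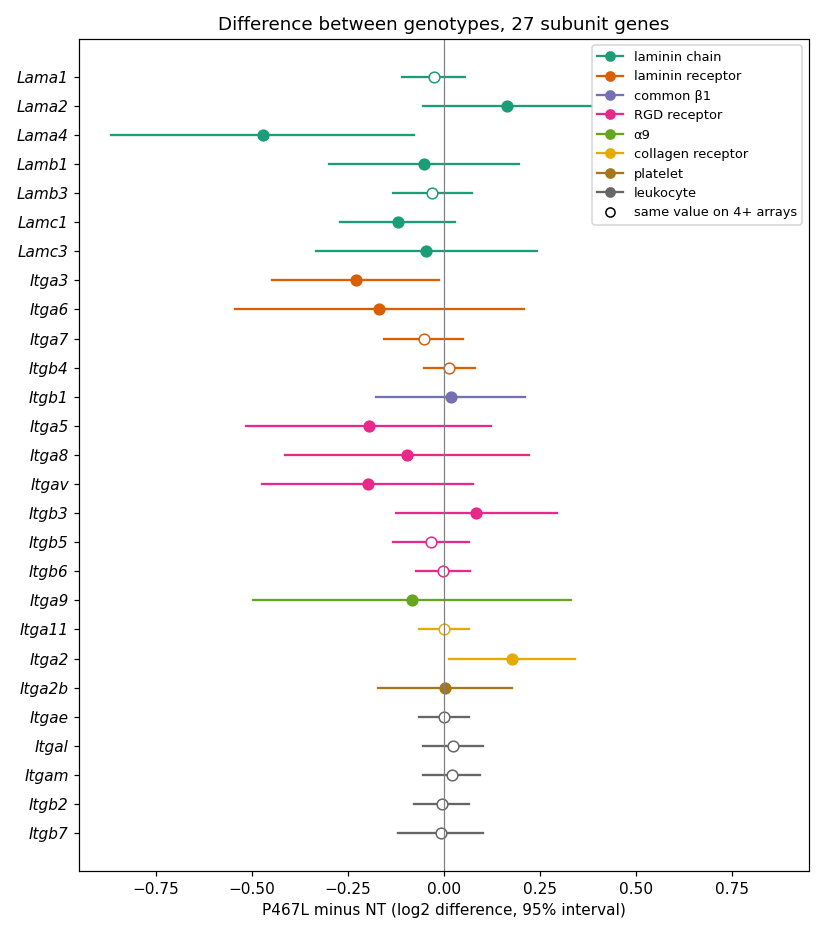
Difference of each of the 27 genes (x axis, P467L minus NT, log2) with its 95% interval from limma (lines), ordered by role from laminin chains to leukocyte integrins (y axis). Open circles mark rows with the same value on 4 or more arrays. The intervals of Lama4 and Itga3 lie below 0 and that of Itga2 above 0, while the other 24 include 0.

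The sequences upstream of 3 of the genes are shown: Itga3 and Itga2 were listed at an unadjusted p of 0.05, and Lama2 was the laminin chain with a higher mean in P467L artery. They are RefSeq promoters of the GRCm38.p6 build, from 250 bases before to 50 after the start. The table held promoters of 16 of the 27 genes, 19 sequences in all, and Lama4 was not among them. Each runs 5′ to 3′ along the gene's strand, with matches to the GC box (GGGCGG, either strand) or the CArG box (the serum response factor motif of many smooth muscle genes) in capitals. The Itga3 promoter lies at chr11:95076665-95076964 on the minus strand, that of Itga2 at chr13:114932051-114932350 on the minus strand, and that of Lama2 at chr10:27616893-27617192 on the minus strand. For Itga3, which has a second start downstream, the upstream one is shown.

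Itga3: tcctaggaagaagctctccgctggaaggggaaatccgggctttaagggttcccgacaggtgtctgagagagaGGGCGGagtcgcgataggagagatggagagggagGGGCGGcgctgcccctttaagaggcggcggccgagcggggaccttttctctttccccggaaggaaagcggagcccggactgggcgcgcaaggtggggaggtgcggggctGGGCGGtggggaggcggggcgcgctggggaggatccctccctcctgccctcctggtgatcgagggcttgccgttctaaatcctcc

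Itga2: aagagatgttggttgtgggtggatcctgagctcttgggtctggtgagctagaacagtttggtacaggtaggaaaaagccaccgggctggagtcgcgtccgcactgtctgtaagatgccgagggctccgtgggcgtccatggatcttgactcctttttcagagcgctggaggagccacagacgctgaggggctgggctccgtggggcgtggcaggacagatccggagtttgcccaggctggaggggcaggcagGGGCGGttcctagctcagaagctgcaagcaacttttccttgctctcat

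Lama2: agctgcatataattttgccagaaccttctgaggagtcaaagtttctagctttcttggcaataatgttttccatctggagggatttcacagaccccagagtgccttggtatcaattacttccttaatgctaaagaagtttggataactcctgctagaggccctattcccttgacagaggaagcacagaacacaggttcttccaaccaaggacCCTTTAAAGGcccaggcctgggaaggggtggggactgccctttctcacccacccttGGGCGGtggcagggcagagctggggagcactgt

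Lama2 held 1 CArG box, 39 bases before the start, and 1 GC box. Itga3 held 3 GC boxes and Itga2 held 1. Of the 19 sequences 10 held a GC box and 2 a CArG box (Lama2 and Itgb6), against 35.7% and 1.63% of 32851 mouse promoters. The PPAR response element searched, AGGTCANAGGTCA on either strand, was in 0 of the 19 and in 0.0396% of all promoters, and the single site AGGTCA, which the full element also contains, was in 0 of the 19 and in 16.3% of all promoters. These are matches of letters within 300 bases and not binding sites.

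Among the laminin chains, Lama4, the α4 chain made by smooth muscle and endothelium for vascular basement membranes, had the largest difference in size of all 27 genes. Its values were 8.23, 8.41 and 7.75 in P467L artery, against 8.65, 8.52, 8.72 and 8.52 in NT artery. Every P467L array lay below every NT array, and P467L replicate 3 was the lowest by a wide margin. The means were 8.13 ± 0.34 (SD, n = 3) and 8.60 ± 0.10 (SD, n = 4), a 1.39-fold lower mean (difference -0.47, 95% interval -0.87 to -0.077, limma, adjusted p = 1). The exact two-sided permutation p was 0.0571, the smallest that 3 against 4 mice allow. Without P467L replicate 3 the difference was -0.28, still without overlap.

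Lama2 codes for the α2 chain, the laminin chain of muscle basement membranes that is lost in a form of muscular dystrophy. It was at 7.35, 7.42 and 7.25 in P467L artery, against 7.25, 6.96, 7.25 and 7.24 in NT artery. This was the only laminin chain of the 7 with a higher mean in P467L artery, by 0.165 (95% interval -0.055 to 0.385, limma, adjusted p = 1), and the groups met at 7.25. Without NT replicate 2, the lowest array, the difference was 0.093. The sign was opposite to that of Lama4, and neither difference passed the test.

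Lamc1 codes for γ1, the γ chain shared by most laminins, and is partnered by the β1 chain of Lamb1 in many of them. Lamc1 was at 8.0, 8.12 and 7.87 in P467L artery, against 8.11, 8.11, 8.14 and 8.11 in NT artery. The NT arrays lay within 0.03 of each other, with P467L replicates 1 and 3 below them and P467L replicate 2 among them. The difference was -0.12 (95% interval -0.27 to 0.030, limma, adjusted p = 1), and without P467L replicate 3 it was -0.0575. Lamb1 stood at 7.01, 6.97 and 6.69 in P467L artery, against 7.09, 6.82, 6.93 and 6.93 in NT artery. These groups overlapped, with a difference of -0.0525 that turned to 0.0475 without P467L replicate 3.

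The remaining laminin chains are known mainly from epithelial or restricted basement membranes. Lamc3, the γ3 chain, was between 6.71 and 6.81 in P467L artery and between 6.55 and 7.05 in NT artery, a difference of -0.047. Lamb3, the β3 chain of the epidermal laminin, was at 6.12 on 6 arrays and at 6.24 in NT replicate 4. Lama1, the α1 chain of embryonic basement membranes, was at 5.89 on 6 arrays and at 5.81 in P467L replicate 2. Of the 7 laminin chains 6 had lower means (median difference -0.047), and 3 had their lowest value on P467L replicate 3 alone, which holds for 24.8% of all rows.

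**Figure D2:**
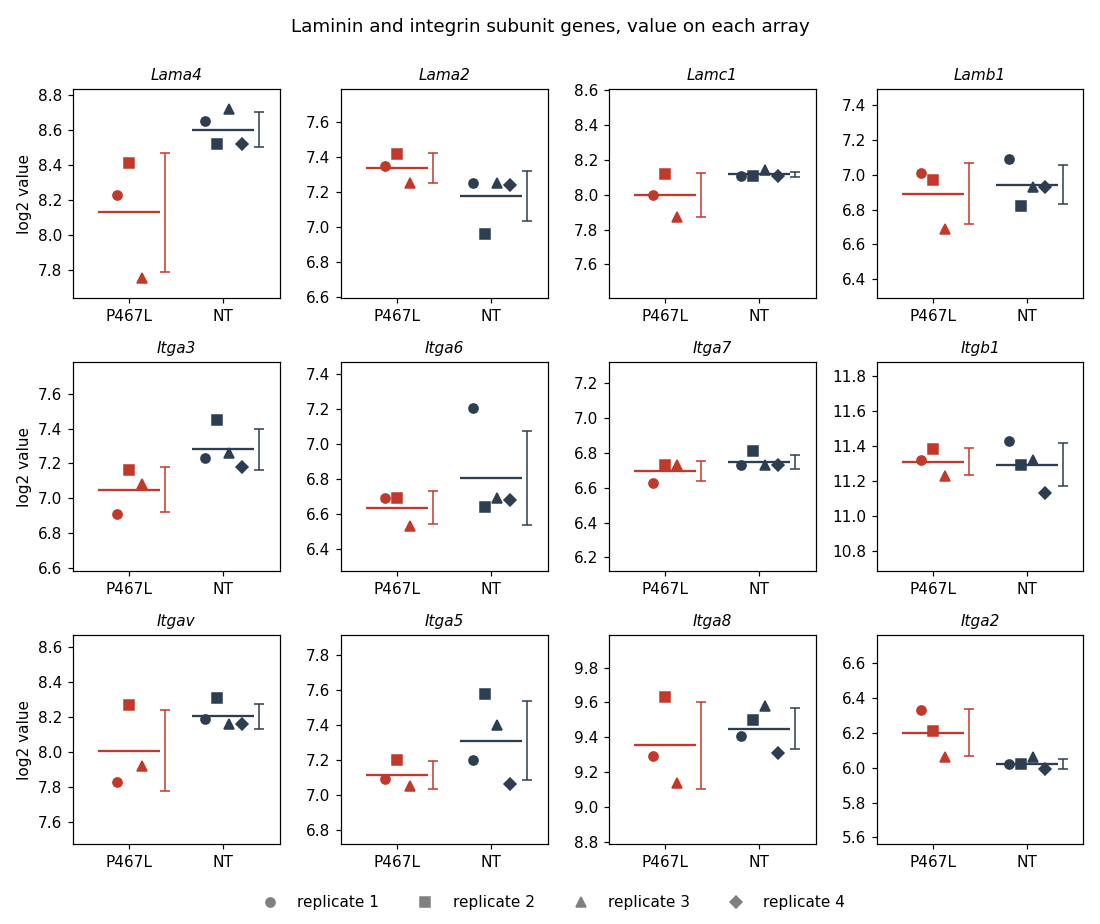
Log2 values (y axis, each panel 1.2 log2 units high) of 12 genes on the 3 P467L arrays (left, red) and 4 NT arrays (right, dark), with the marker shape giving the replicate number, lines for means and bars for SD. The groups are apart for Lama4 and Itga3 and overlap or meet in the other 10 panels.

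The laminin receptors comprise α3, α6 and α7, which pair with β1, and β4, which pairs with α6. Itga3 had the lower values in P467L artery, at 6.91, 7.16 and 7.08, against 7.23, 7.45, 7.26 and 7.18 in NT artery. The groups did not overlap, but the gap between P467L replicate 2 and NT replicate 4 was narrow. Means were 7.05 ± 0.13 (SD, n = 3) and 7.28 ± 0.12 (SD, n = 4), a 1.17-fold lower mean (difference -0.23, 95% interval -0.45 to -0.012, limma, adjusted p = 1), with an exact two-sided permutation p of 0.0571. With 1 array left out the difference stayed between -0.285 and -0.16.

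Itga6, also a receptor of endothelium, was at 6.69, 6.69 and 6.53 in P467L artery, against 7.21, 6.64, 6.69 and 6.68 in NT artery. A single NT array set its difference of -0.17 (95% interval -0.54 to 0.21), which was -0.033 without NT replicate 1. Itga7, the laminin receptor α subunit typical of contractile muscle, was at 6.63, 6.73 and 6.73 in P467L artery, against 6.73, 6.81, 6.73 and 6.73 in NT artery. It had the same value on 5 arrays, so its difference of -0.053 came from P467L replicate 1 and NT replicate 2. Itgb4, which anchors epithelia to laminin in hemidesmosomes, was at 6.82, 6.81 and 6.81 in P467L artery, against 6.81, 6.79, 6.81 and 6.79 in NT artery.

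Itgb1, the β subunit that most α subunits of the vessel wall share, differed little between genotypes. Its values were 11.32, 11.38 and 11.23 in P467L artery, against 11.43, 11.29, 11.32 and 11.13 in NT artery. The P467L arrays lay inside the NT range. The difference was 0.018 (95% interval -0.18 to 0.21, limma, adjusted p = 1).

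Receptors for the RGD sequence of fibronectin, vitronectin and related proteins had lower means in 5 of 6 genes (median difference -0.065), with 0 past the test. Itgav, the αv subunit that pairs with several β subunits and can release active TGF-β, was at 7.83, 8.27 and 7.92 in P467L artery, against 8.19, 8.31, 8.16 and 8.16 in NT artery. P467L replicates 1 and 3 lay below all NT arrays, and P467L replicate 2 lay above 3 of them. The difference was -0.20 (95% interval -0.47 to 0.077, limma, adjusted p = 1). Leaving out P467L replicate 2 gave -0.33 and leaving out P467L replicate 1 gave -0.11.

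Itga5, the main fibronectin receptor α subunit, was at 7.09, 7.20 and 7.05 in P467L artery, against 7.20, 7.58, 7.40 and 7.06 in NT artery. NT replicates 2 and 3 were high and NT replicate 4 lay among the P467L arrays. The difference was -0.20 (95% interval -0.52 to 0.12) and -0.11 without NT replicate 2. Itga8, the nephronectin and fibronectin receptor α subunit that marks contractile smooth muscle, was at 9.29, 9.63 and 9.14 in P467L artery, against 9.41, 9.50, 9.58 and 9.31 in NT artery. The P467L arrays held both the highest and the lowest value, and the difference of -0.097 turned to 0.010 without P467L replicate 3.

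Of the β partners of αv, Itgb3 had a higher mean and Itgb5 and Itgb6 had lower means, all by less than 0.1. Itgb3, the β subunit of the vitronectin receptor, was at 7.10, 6.93 and 6.93 in P467L artery, against 6.89, 6.93, 7.05 and 6.74 in NT artery, a difference of 0.084 (95% interval -0.13 to 0.29). It was 0.0275 without P467L replicate 1 and 0.03 without NT replicate 4. Itgb5 was at 7.62, 7.62 and 7.58 in P467L artery, against 7.72, 7.60, 7.62 and 7.62 in NT artery. Both overlapped between genotypes, and for Itgb5 4 arrays gave the same value. Itgb6, mostly an epithelial subunit, was between 4.69 and 4.73 on all arrays and below the lower quartile of each.

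Itga9, whose α9β1 receptor binds tenascin-C, VCAM-1 and a splice form of fibronectin, was at 8.42, 8.52 and 8.14 in P467L artery, against 8.53, 8.71, 8.45 and 8.08 in NT artery. The groups overlapped widely, with a difference of -0.0825 (95% interval -0.50 to 0.33), and without P467L replicate 3 it was 0.0275.

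Of the collagen receptors, Itga2, the α2 subunit best known from platelets and epithelia, had the largest difference above 0 of the 27 genes. Its values were 6.33, 6.21 and 6.06 in P467L artery, against 6.02, 6.02, 6.06 and 5.99 in NT artery. P467L replicates 1 and 2 lay above all NT arrays and P467L replicate 3 equalled NT replicate 3. The means were 6.20 ± 0.14 (SD, n = 3) and 6.02 ± 0.029 (SD, n = 4), a 1.13-fold higher mean with a 95% interval of the log2 difference from 0.014 to 0.34 (limma, adjusted p = 1) and an exact two-sided permutation p of 0.114. Without P467L replicate 1 the difference was 0.11, against 0.18 with all arrays. Itga11, a fibroblast collagen receptor, had the value 6.41 on all 7 arrays.

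Among the subunits of blood cells, those of leukocytes varied little across arrays. Itgal and Itgam, the α subunits of the leukocyte receptors LFA-1 and Mac-1, each held 1 value on 6 arrays (5.75 and 5.72), with 5.82 for Itgal in P467L replicate 3 and 5.78 for Itgam in P467L replicate 2. Their β partner Itgb2 was at 6.10, 6.10 and 6.06 in P467L artery, against 6.10, 6.10, 6.10 and 6.07 in NT artery. Itgb7 and Itgae form a receptor of intraepithelial lymphocytes. The row of Itgb7 was at 6.58, 6.58 and 6.63 in P467L artery, against 6.56, 6.58, 6.58 and 6.70 in NT artery, and that of Itgae was at 5.15 on all 7 arrays. Itga2b, the platelet αIIb subunit, was at 6.31, 6.16 and 6.45 in P467L artery, against 6.31, 6.31, 6.26 and 6.34 in NT artery, a difference of 0.0017 that ran from -0.07 to 0.075 with 1 array left out.

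Repeated values were common among these genes: 12 of the 27 (44.4%) held 1 value on 4 or more arrays, against 20.0% of all rows, and 2 held 1 value on all 7, against 1.21%. Median polish, the usual summary of probes in RMA, can return such ties. For the rows at 1 value on all 7 arrays, Itga11 and Itgae, the spread was 0 and the interval comes from the moderation by limma alone. All 5 leukocyte subunits were among the 12. In the 15 genes without such ties the median difference was -0.0825, with 10 lower and 5 higher means. The same values for untied rows of the whole table are not given here.

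**Figure D3:**
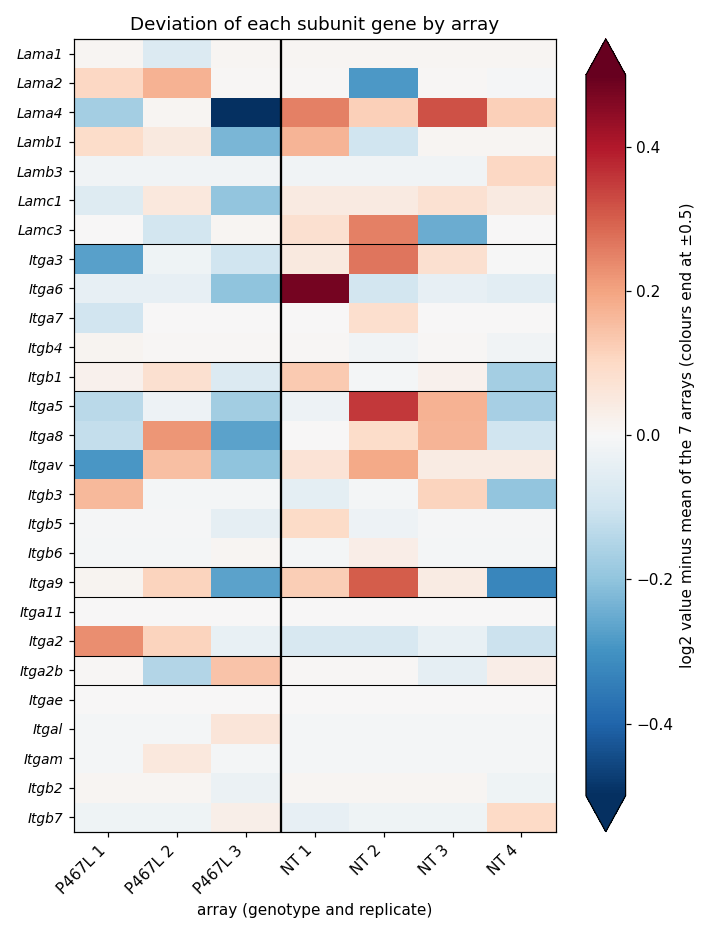
Log2 value minus the gene's mean over the 7 arrays (colour, ending at ±0.5), for the 27 genes (rows, grouped by role) on the P467L arrays (left of the line) and NT arrays (right). Lama4 on P467L replicate 3 and Itga6 on NT replicate 1 carry the strongest colours, and the leukocyte subunits at the bottom are nearly white.

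The arrays of a genotype differed from each other in how the genes lay as a set. The mean deviation of the 27 genes from their own means was -0.022, 0.021 and -0.083 in P467L replicates 1, 2 and 3, against 0.048, 0.040, 0.023 and -0.027 in NT replicates 1 to 4. P467L replicate 3 was the lowest array, and P467L replicates 1 and 2 lay inside the NT range. Over all rows P467L replicate 3 was also lowest, at -0.065, against 0.007 and 0.051 in the other P467L arrays and -0.020 to 0.056 in NT arrays. Of the 27 genes 8 (29.6%) had their lowest value on P467L replicate 3 alone, which is close to the 24.8% of all rows.

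Proteins that work with integrins and laminins were compared next, in 4 lists. Of 23 measured genes (27 listed) for integrin-binding and adhesion proteins of the cytoplasm, means were lower in P467L artery for 16 and higher for 7 (median difference -0.11), with 0 past the test. P467L replicate 3 alone held the lowest value for 47.8% of these genes, against 24.8% of all rows. In the lists that follow it did so for 37.5%, 46.7% and 40.0%, in the order given. Lims2, which codes for the adaptor PINCH2, was at 7.57, 7.57 and 7.33 in P467L artery, against 7.67, 7.93, 7.67 and 7.76 in NT artery. Its groups did not overlap (difference -0.27, limma, adjusted p = 1). Bcar1, the docking protein p130Cas, differed by -0.20 and Tns1, which links integrins to actin, by -0.17, both with overlap.

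Among 16 basement membrane partners of laminin, means were lower for 11 and higher for 4 (median difference -0.0325), with 0 past the test. Col4a1, which codes for a chain of the collagen IV network, was at 7.47, 7.58 and 7.42 in P467L artery, against 7.76, 7.79, 7.72 and 7.54 in NT artery. NT replicate 4 lay among the P467L arrays, and the difference was -0.21 (limma, adjusted p = 1). Col4a2, whose product joins that of Col4a1 in the same trimer, differed by -0.13 and Col4a5 by -0.094.

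Of 15 measured (21 listed) laminin receptors outside the integrins and members of the dystrophin complex, means were lower for 10 and higher for 5 (median difference -0.0225), with 0 past the test. Sdc2, a heparan sulphate proteoglycan of the cell surface, was at 8.37, 8.69 and 8.21 in P467L artery, against 9.01, 8.69, 8.74 and 8.73 in NT artery, and the groups met at 8.69. Its difference was -0.37, and those of its relatives Sdc4 and Sdc1 were -0.105 and 0.16 (limma, adjusted p = 1 for each).

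Among 25 measured (26 listed) integrin ligands other than laminin, means were lower for 15 and higher for 10 (median difference -0.037), with 0 past the test. Postn, which codes for periostin, a matrix ligand of αv integrins, was at 9.52, 9.45 and 8.62 in P467L artery, against 10.08, 9.70, 10.16 and 9.73 in NT artery. Every P467L array lay below every NT array, P467L replicate 3 most of all, for a difference of -0.72 (95% interval -1.35 to -0.094, limma, adjusted p = 1). Mfge8, an RGD protein of the arterial wall bound by αv integrins, was at 8.86, 8.87 and 8.79 in P467L artery, against 9.07, 9.33, 9.07 and 9.01 in NT artery. It too was without overlap, by -0.28 (limma, adjusted p = 1), and here the P467L arrays lay close together. Tnc, the tenascin-C that α9β1 binds, differed by -0.17.

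**Figure D4:**
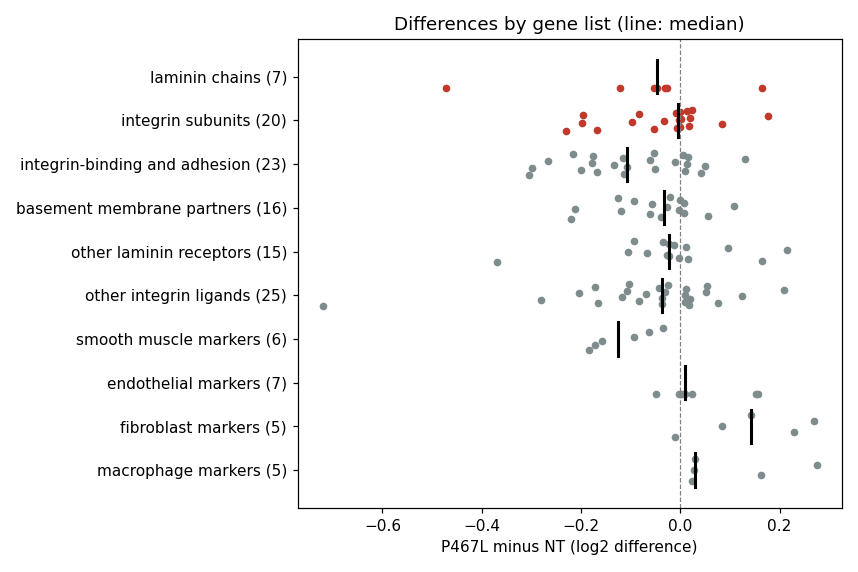
Difference of each gene (points, x axis, P467L minus NT, log2) in the laminin and integrin genes (red), 4 partner lists and 4 marker lists (grey), with the number of measured genes in brackets and a line at the median. Medians of both red rows lie at or below 0, as do those of the partner lists and smooth muscle markers, while the fibroblast median lies above 0.

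Markers of the cells in the vessel wall are given beside these values, and their part in the differences was not tested. All 6 smooth muscle markers were lower on average in P467L artery (median difference -0.13), and their mean log2 level was 10.34 to 10.42 in P467L and 10.43 to 10.57 in NT artery. For 4 of the 6 the lowest value was on P467L replicate 3 alone, which holds for 24.8% of all rows. For the 7 endothelial markers the median difference was 0.010 (5 higher) and the mean level 7.65 to 7.99 in P467L and 7.61 to 8.09 in NT artery. The 5 fibroblast markers had a median of 0.14 (4 higher) and mean levels of 9.11 to 9.37 in P467L and 8.92 to 9.29 in NT artery. Each of the 5 measured macrophage markers was higher on average (median difference 0.029), with mean levels of 6.19 to 6.80 in P467L and 6.30 to 6.52 in NT artery. All 5 had their highest value on P467L replicate 2 alone, which holds for 17.8% of all rows. P467L replicate 3 alone held the lowest value of 3 of them. The 5 adipocyte markers had a median of -0.29 (4 lower) and mean levels of 6.97 to 7.28 in P467L and 6.95 to 7.94 in NT artery. The level of 7.94 was that of NT replicate 1 alone, and the other NT arrays were at 6.95, 7.11 and 7.28. Of the other lists, T cell, B cell, neutrophil, mast cell, platelet, lymphatic, Schwann cell, sympathetic nerve, mesothelial and epithelial markers had medians from -0.023 to 0.12. The lower end was the B cell list, with 3 measured genes (1 higher, 2 lower). The upper end was the lymphatic list, with 2 measured genes of opposite sign. The lowest value of any row on this scale was 1.58, so a value above 0 does not show that a marker was detected. Of the markers 0 passed the test.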

How the data were processed

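Mesenteric artery RNA of 7 mice was measured on Affymetrix mouse exon 1.0 ST arrays, from about 50 ng of RNA amplified in 2 steps, per the labels' protocols. Per the submitters' processing notes, the authors produced the deposited log2 values by RMA in Affymetrix Power Tools, with mm9 as the build. The sources used here give no versions, probe set level or detection calls. RMA can shrink differences of dim probes, and its median polish can return equal values across arrays. Whether either did so here was not tested.

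Rows were named through the platform annotation, and 14996 of 23332 had 1 symbol, 1019 several and 7317 none. In lists a gene was represented by its row with the highest mean. There were 0 columns of other samples. The genotypes were compared in limma 3.58.1 (R 4.3.3) by lmFit with eBayes on every row, unfiltered and without covariates, at 1.01 prior degrees of freedom. p-values were adjusted by Benjamini-Hochberg across the table, calls were made at 0.05, and intervals are 95% intervals of that fit. Single genes also had an exact two-sided permutation test over 35 splits (scipy 1.17.1). The fit was tested on simulated data. The number of arrays limits the precision.

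Values per array are given for 8 genes chosen for the vessel wall (Itga5, Itga7, Itga8, Itgb1, Lama2, Lama4, Lamb1, Lamc1), up to 3 of smallest p per direction in α subunits, β subunits and laminin chains, and the others by range or in full. In each partner list the 3 of smallest p are named. Itga1, Lama5 and Lamb2 of the chosen set were not analysed here. Members, roles and lists were chosen with earlier results of these data known. Alternatives were median centring of arrays, quantile normalization once more, omission of the dimmest 25% or 50% of rows or of tied ones, array weights, moderation with trend and robust settings, only rows with 1 symbol, the replicate number as a block, and each array left out. Promoters and gene synonyms are from RefSeq, GRCm38.p6, whereas the values rest on mm9, and no coordinates of the rows are given.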

Additional observations from a re-analysis of the deposited data

Results flagged for a closer look

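In the 4 NT arrays, some genes had 1 array far from the other 3, judged by its gap to the nearest array over the whole range (Dixon's criterion). Chance flags about 1 in 20 groups where values are untied, and 3 equal values fix the ratio at 1.0. By this measure 9 of the 27 genes stood out (5 of them with 3 equal NT values), against 19.1% of all rows. Genes that stood out without having 3 equal NT values were 4 of the 27, and such rows were 7.81% of all rows. Groups of 3, as in P467L, were not tested. Itga6 had a ratio of 0.912, with 7.21 in NT replicate 1 and 6.64 to 6.69 on the other NT arrays. Lama2 had 0.966, with 6.96 in NT replicate 2 and 7.24 to 7.25 on the others. In the other subunit genes the range was small: the ratio was 1.0 for Itga7, Itgb2, Itgb6, Lamb3 and Lamc1, where 3 NT arrays held the same value, 0.833 for Itgb5 and 0.857 for Itgb7. Among the partner genes named above, the only ones checked, it was 1.0 for Bcar1, Col4a5 and Sdc1, where 3 NT arrays also held the same value, and 0.844 for Sdc2, with 9.01 in NT replicate 1.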

How the results depend on the processing

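limma called 0 of the 27 genes and 0 rows under every alternative run. The median difference of the 27 genes, -0.027, was -0.082 with tied rows left out, which leaves 15 of them, and -0.0033 to -0.027 with 1 array left out. In the 15 it ran from -0.16 to -0.033 with 1 array left out. The α subunit median, -0.053, was -0.13 with the lowest 50% of rows or with tied rows left out and -0.07 to 0 with 1 array left out, and the β median, -0.0033, was 0.051 with tied rows left out and -0.0067 to 0.0075 with 1 array left out. The laminin median was -0.047 and ran from -0.06 to -0.027 with 1 array left out. Array weights brought the medians nearer to 0, at -0.0037 for the 27 genes, -0.0037 for α subunits and -0.0085 for laminin chains, and gave 0.0054 for β subunits. With 1 array left out, 0 to 4 genes were at an unadjusted p of 0.05, 2 to 5 had no overlap between genotypes and 14 to 18 had lower means. For these counts the leave-outs were chosen after seeing the data, and shares of all rows are not given here.

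Single differences that changed sign were small. Itga2b was -0.0017 with centring on array medians, Itgb2 0.0054, Lamb1 0.050 and Lamc3 0.012 with array weights. With 1 array left out the ranges were -0.07 to 0.075 for Itga2b, -0.235 to 0.010 for Itga8, -0.20 to 0.0275 for Itga9, -0.037 to 0.063 for Itgb1, -0.013 to 0.0075 for Itgb2, -0.01 to 0.0067 for Itgb6, -0.025 to 0.023 for Itgb7, -0.1125 to 0.0475 for Lamb1 and -0.14 to 0.03 for Lamc3. With array weights Itga2 was 0.27 and Itgav -0.31. The signs of Lama4, Itga3 and Itga2 held under every alternative in which their rows were tested. The causes were not tested.

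The labels state no pairing of the animals. Deviations of same-numbered arrays correlated at 0.12, -0.20 and -0.090 across rows, which is too few pairs to decide whether replicate numbers paired them. With the replicate block, which drops NT replicate 4 from the comparison, 0 rows were called. Itgb1 was then at -0.037 and Itgb7 at 0.023. The block also moved Itga9 from -0.0825 to -0.20 and Itga5 from -0.20 to -0.28. Nearer to 0 were Itgb3, from 0.084 to 0.03, and Itga2, from 0.18 to 0.17. Each gene had 1 row, so the choice among several rows of a gene gave no other value.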
